A study of Mus musculus with 8 samples.

Results

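The Rab genes studied here encode the Rab family of small GTPases and a few proteins named for them. They were taken as all protein-coding genes of a RefSeq gene table (assembly GRCm38) whose symbol is Rab followed by a digit, with 2 such genes left out of the set. This gave 67 of 21883 protein-coding genes: 57 Rab GTPases and 10 partner proteins, which bind or regulate a Rab. The gene Zfp366 encodes DC-SCRIPT, a zinc finger protein, and the places it binds were mapped by CUT&Tag, in which an antibody brings a transposase to the bound protein to cut and tag DNA there. Conventional dendritic cells of the cDC1 and cDC2 subsets were isolated from spleens of female C57BL/6 mice, either wild type (zfp366+/+) or lacking Zfp366 (zfp366-/-), and each library was a pool of mice, whose age is not stated. For cDC1, 3 pools were wild type and 2 knockout, and for cDC2 the numbers were 1 and 2. For each subset, a table gave peaks called by the authors on 1 set of wild-type tags (35.5 M in cDC1, 4.77 M in cDC2) against 1 set of knockout tags (12.1 M and 6.83 M). Values are normalised tags: the tags in a 191 bp peak per 10000000 tags of the set. The fold, score and p of a peak are the authors' own.

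Every value describes a pooled set, since values per library were not used here, and the spread between mouse pools is unknown. Every listed peak has a fold of wild type over knockout of at least 4, since the authors required it. The tables therefore show where wild-type signal exceeded knockout signal and not where it did not. A gene without a peak had no place that passed those limits, which is not a measurement of absent binding. The tables hold no expression values, so neither the identity of the cells nor the level of any Rab transcript was checked. Zfp366 itself carried 10 cDC1 peaks and 1 cDC2 peak, and its deletion could not be checked library by library. Each peak was assigned to any gene containing its centre or, outside all protein-coding genes, to the nearest one. Intervals are exact (Clopper-Pearson) 95% intervals of the tag ratio or of a share. Those of a share treat peaks or windows as independent, although they come from pooled sets and several can belong to the same gene. All intervals cover counting error only, since PCR copies of a tag, where any remain, are not independent molecules. The intervals of a fold also make no allowance for the listing of peaks by a fold of at least 4, which favours high folds. The authors' peak calling considered at most 1 tag per bp. A listed knockout value of 0.5 tag, the lowest, can also mean none. There the fold is given with the knockout set at 3 tags, which equal 2.47 normalised tags in cDC1 and 4.40 in cDC2. This is a convention, and the 95% lower limit of the fold, given beside it, is lower.

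Rab proteins switch between a GTP-bound form on a membrane and a GDP-bound form that can be withdrawn to the cytosol. Each marks particular membranes, where the active form recruits effectors such as tethers and motors, so that a vesicle docks at the right compartment. In dendritic cells this traffic carries internalised antigen through endosomes and phagosomes, brings newly made receptors and MHC molecules through the Golgi, and releases cytokines. The 67 genes were described in groups by the best known place of the protein: early and recycling endosomes (16 genes), late endosomes, lysosomes and phagosomes (11), endoplasmic reticulum and Golgi (13), secretion and the plasma membrane (13), cilium and others (4), and the partners (10).

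Many of the strongest peaks lay next to the start of the gene, and the stretch before the start is shown for 6 genes in which this was seen. RefSeq promoter windows (GRCm38.p6), from 250 bases before to 50 after a listed start, were found for 55 of the 67 genes, 70 windows in all. Not in that table were Rab2a, Rab4a, Rab18, Rab26, Rab27b, Rab30, Rab36, Rab37, Rab38, Rab44, Rab11fip1 and Rab11fip4. The 250 bases before the start are printed 5′ to 3′ on the strand of the gene. The first 5 genes had strong peaks over the window. Rab32 is shown because none of its 3 peaks had a knockout tag above the lowest value. Capitals mark matches, on either strand, to GAGGAAGT (PU.1), GGAANNGAA (ETS-IRF), GAAANNGAA (IRF), TGANTCA (AP-1) and GGGCGG (GC box). The first 3 motifs share letters, so their matches can overlap. The stretches are chr17:33760487-33760736 on the minus strand for Rab11b, chr8:72160950-72161199 on the plus strand for Rab8a, chr9:53706233-53706482 on the minus strand for Rab39, chr11:20201162-20201411 on the plus strand for Rab1a, chr11:100738216-100738465 on the minus strand for Rab5c, and chr10:10558208-10558457 on the minus strand for Rab32.
Rab11b: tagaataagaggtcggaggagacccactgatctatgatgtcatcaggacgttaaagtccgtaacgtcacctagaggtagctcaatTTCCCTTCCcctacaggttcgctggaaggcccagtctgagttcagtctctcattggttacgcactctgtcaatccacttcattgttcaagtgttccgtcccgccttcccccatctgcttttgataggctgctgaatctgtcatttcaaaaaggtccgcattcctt
Rab8a: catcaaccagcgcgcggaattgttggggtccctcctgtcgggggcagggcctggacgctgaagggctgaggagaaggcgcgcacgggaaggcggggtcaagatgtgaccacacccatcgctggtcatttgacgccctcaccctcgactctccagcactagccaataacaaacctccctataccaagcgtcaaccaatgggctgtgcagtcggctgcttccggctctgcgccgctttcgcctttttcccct
Rab39: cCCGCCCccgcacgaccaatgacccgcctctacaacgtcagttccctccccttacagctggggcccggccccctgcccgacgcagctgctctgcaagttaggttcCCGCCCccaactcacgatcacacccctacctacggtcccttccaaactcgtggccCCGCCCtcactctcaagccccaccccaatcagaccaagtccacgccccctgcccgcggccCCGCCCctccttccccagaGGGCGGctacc
Rab1a: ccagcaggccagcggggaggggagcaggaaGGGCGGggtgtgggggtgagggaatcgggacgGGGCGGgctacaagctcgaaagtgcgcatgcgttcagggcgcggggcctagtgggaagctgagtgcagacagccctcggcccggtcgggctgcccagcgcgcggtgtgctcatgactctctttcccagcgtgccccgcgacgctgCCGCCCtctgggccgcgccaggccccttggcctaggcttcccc
Rab5c: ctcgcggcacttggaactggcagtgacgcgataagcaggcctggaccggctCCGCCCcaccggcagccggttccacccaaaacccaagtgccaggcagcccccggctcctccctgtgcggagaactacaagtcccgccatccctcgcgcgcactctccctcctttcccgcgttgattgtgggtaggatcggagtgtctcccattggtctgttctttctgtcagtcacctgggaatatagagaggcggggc
Rab32: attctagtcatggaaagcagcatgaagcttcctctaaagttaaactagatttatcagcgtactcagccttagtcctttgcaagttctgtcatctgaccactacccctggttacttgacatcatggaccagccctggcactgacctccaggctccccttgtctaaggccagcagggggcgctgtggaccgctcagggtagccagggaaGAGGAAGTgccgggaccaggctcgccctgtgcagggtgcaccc

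In the stretch of Rab11b, 191 of the 250 printed bases lay under its cDC1 peak, and these held the single ETS-IRF match. The peak of Rab8a also covered 191 of the printed bases, which matched none of the 5 motifs. At Rab39 the peak covered 147 bases with 2 of the 5 GC boxes, at Rab1a 150 bases with 2 of the 3, and at Rab5c 186 bases without its 1 GC box. The PU.1 match of Rab32 began 43 bases before the start, while the peak reached only 25 bases beyond the start on that side. Over all 70 Rab windows, a GC box stood in 49 (70.0%), against 46.2% of 21229 windows of protein-coding genes. The other matches were rare: PU.1 in 2 Rab windows (2.86% against 3.13%), ETS-IRF in 5 (7.14% against 7.77%), IRF in 3 (4.29% against 8.13%) and AP-1 in 3 (4.29% against 7.0%). A match to these letters is a description of the sequence and not a binding site.

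In cDC1, 50 of the 67 Rab genes (74.6%) carried at least 1 peak, and 51.4% of all protein-coding genes did. They held 132 peaks, with 1 peak at 18 genes, 2 at 11, 3 at 11, and 4 to 9 at the remaining 10. Rab2a had the most with 9, followed by Rab10, Rab11fip4 and Rab3gap2 with 8 each. Gene length moved with this count: the median Rab gene spans 25.3 kb and the median protein-coding gene 17.2 kb, and over all protein-coding genes those with a cDC1 peak had a median length of 27.4 kb and those without 9.25 kb. Among Rab genes these medians were 27.0 kb and 19.1 kb. The part of gene length in the share was not tested.

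The wild-type signal of the 132 Rab peaks ran from 5.07 to 89.8 normalised tags, with a median of 19.1 (15.5 over all 31473 cDC1 peaks). The knockout signal had a median of 2.06 normalised tags (1.65 over all peaks) and reached 18.5. Their median fold was 9.19, against 10.2 over all peaks, so the Rab peaks held more tags in both genotypes at the median. The interval of the fold lay wholly above 4 at 25 of the 132 (18.9%, 95% interval 12.7% to 26.7%), against 20% of all cDC1 peaks. At 24 Rab peaks (18.2%) of 19 genes the knockout was at the lowest value, against 20.1% of all peaks. No such peak exceeded 36.8 normalised wild-type tags. Signal of at least 50 normalised tags was found at 17 peaks of 13 genes, 12.9% of the Rab peaks (95% interval 7.68% to 19.8%) against 5.69% of all cDC1 peaks. All 4 peaks of Rab8b are among them, so they are not independent and the interval is no test.

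**Figure D1:**
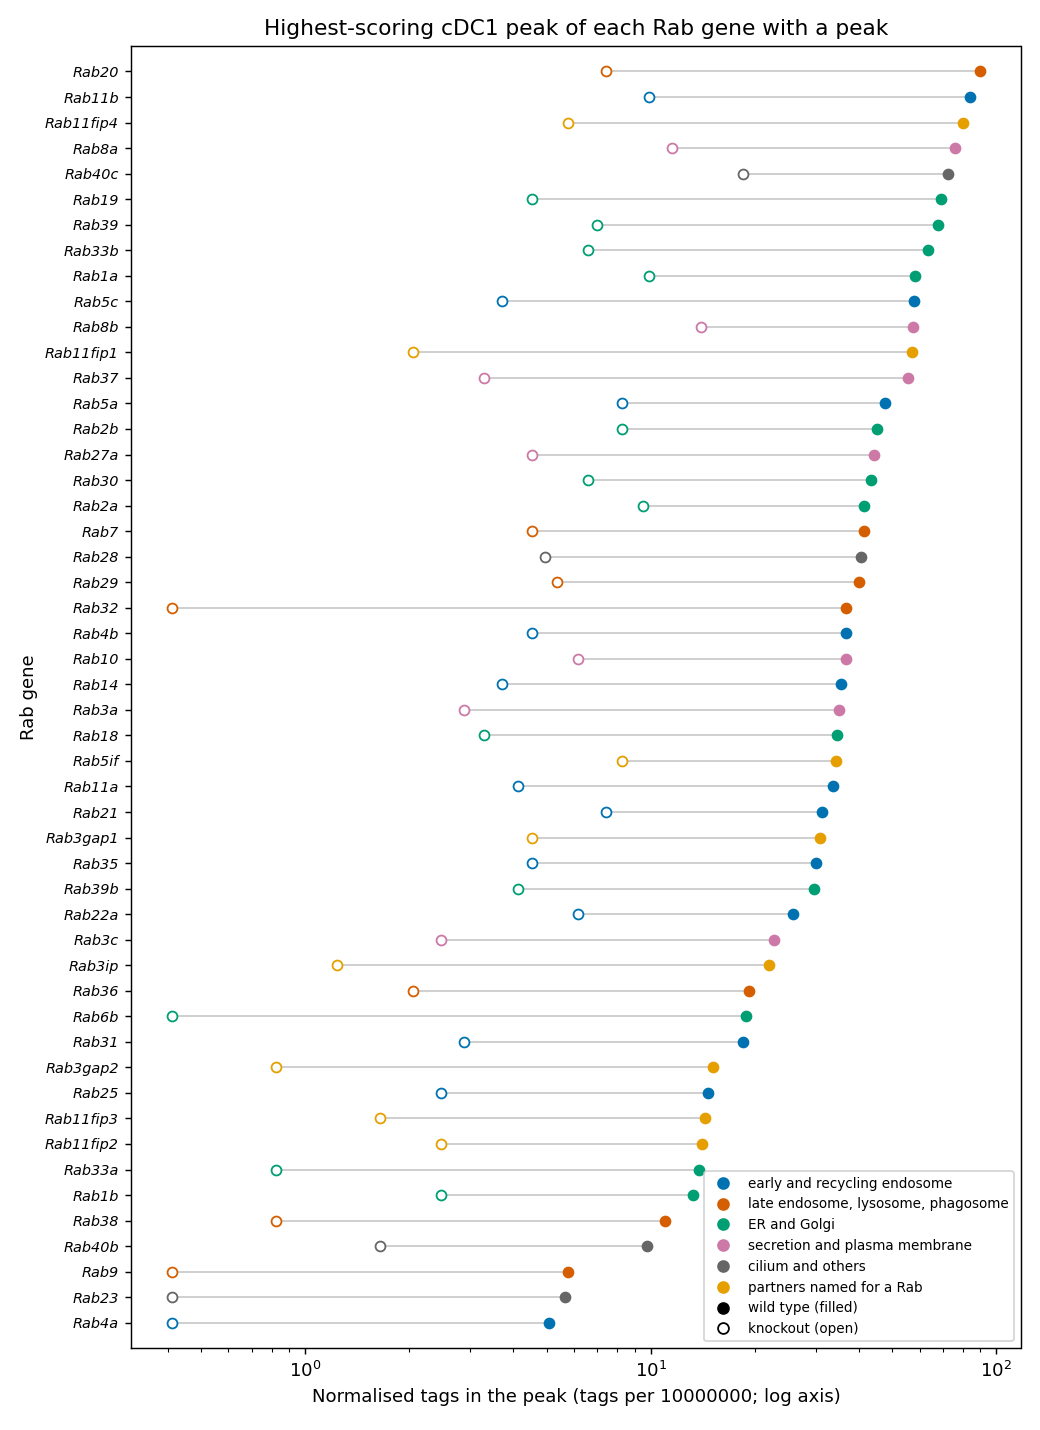
The highest-scoring cDC1 peak of each of the 50 Rab genes with a peak, with normalised tags (per 10000000) on a log axis; filled points are the pooled wild-type set, open points the pooled knockout set, and colours give the group of the protein. Rab20 leads with 89.8 wild-type tags, and Rab32, Rab6b, Rab9, Rab23 and Rab4a have the knockout at its lowest value.

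Among the GTPases of early and recycling endosomes, 12 of 16 had a cDC1 peak, against 51.4% of all protein-coding genes. The highest was at Rab11b, which directs recycling endosomes to the cell surface: 83.7 normalised tags in wild type and 9.89 in knockout, a fold of 8.96 (95% interval 5.06 to 17.5), at chr17:33760525-33760715. Its centre lay 134 bp before the gene start, in the stretch printed above. A peak of similar placement stood at Rab5c, one of the GTPases of early endosome fusion, with 57.8 wild-type and 3.71 knockout normalised tags, a fold of 15.6 (95% interval 5.92 to 43.7), 91 bp before the start. Its relative Rab5a had a peak of 47.5 and 8.24 normalised tags 137 bp before its start, a fold of 5.76 (95% interval 3.07 to 12.3). Rab5a was added to the genes named here after its values were seen. Rab14, which acts between endosomes and the Golgi, carried 4 peaks, and 3 of them held between 34 and 42.7 normalised wild-type tags. The strongest peaks of the other 8 genes of the group, Rab4a, Rab4b, Rab11a, Rab21, Rab22a, Rab25, Rab31 and Rab35, ran from 5.07 at Rab4a to 36.8 at Rab4b. No cDC1 peak was assigned to Rab5b, Rab12, Rab15 and Rab17.

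Of the 11 GTPases of late endosomes, lysosomes and phagosomes, 7 (63.6%) had a cDC1 peak, against 51.4% of all protein-coding genes. The strongest Rab peak of all belonged to Rab20, which takes part in the maturation of phagosomes. It lay inside the gene, 14.3 kb after the start, at chr8:11464208-11464398, and held 89.8 wild-type and 7.41 knockout normalised tags, a fold of 12.1 (95% interval 6.31 to 26.8). Both other Rab20 peaks were far weaker, at 12.5 and 8.46 normalised tags. Rab7, the GTPase that guides late endosomes to lysosomes, had its strongest peak 19.05 kb before its start. It lay between Rab7 and Rpn1, which was 20.15 kb away, and held 41.3 and 4.53 normalised tags, a fold of 9.20 (95% interval 3.79 to 23.4). The 3 Rab7 peaks inside the gene held 10.1 to 16.5 normalised wild-type tags.

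Rab32, a GTPase of lysosome-related organelles and of phagosomes that hold bacteria, stood apart on the knockout side and was added after its values were seen. Its 3 peaks lay inside the gene within 2.2 kb of the start, with 36.8, 25.8 and 28.3 normalised wild-type tags in order of distance from it. In the knockout set each was at the lowest value listed. The wild-type signal was at least 14.9-fold, 10.4-fold and 11.5-fold higher. The strongest peak of Rab29 held 40.2 normalised tags, that of Rab36 19.3, that of Rab38 11 and that of Rab9 5.78. Rab9b, Rab24, Rab34 and Rab42 had no cDC1 peak.

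The GTPases of the endoplasmic reticulum and Golgi had a cDC1 peak at 12 of 13 genes (92.3%), against 51.4% of all protein-coding genes. The peak of Rab19, a Golgi-associated member, held 69.4 wild-type and 4.53 knockout normalised tags, a fold of 15.3 (95% interval 6.38 to 38.8). It lay 1.37 kb below the gene at chr6:39379243-39379433, between Rab19 and Slc37a3, which was 1.61 kb away. Rab39, which acts on phagosomes and the Golgi, had 67.8 and 7.0 normalised tags 199 bp before its start (fold 9.69, 95% interval 4.75 to 20.3), and a further peak of 36.5 normalised tags inside the gene. Rab33b, of the Golgi and of forming autophagosomes, had 63.4 and 6.59 normalised tags 44 bp after its start, a fold of 9.76 (95% interval 4.87 to 22.9). At Rab1a, needed for transport from the endoplasmic reticulum to the Golgi, the fold was lower: 58.1 wild-type and 9.89 knockout normalised tags gave 5.87 (95% interval 3.29 to 11.6), 196 bp before the start.

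Rab2a, which acts in transport at the Golgi, had the most peaks of any Rab gene, but they were modest. Its 9 peaks held 8.32 to 41.3 normalised wild-type tags, 6 of them inside the gene, and the strongest lay 39.7 kb beyond it. The peaks of Rab1b, Rab2b, Rab6b, Rab18, Rab30, Rab33a and Rab39b reached between 13.3 normalised tags at Rab1b and 45.3 at Rab2b. The peak of Rab2b was also centred inside Tox4, so it cannot be given to either gene alone. Rab6a was the only gene of the group without a peak of its own.

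Of the 13 GTPases of secretion and the plasma membrane, 7 (53.85%) had a cDC1 peak, close to the 51.4% of all protein-coding genes. Rab8a, which moves vesicles to the plasma membrane, had 76.0 wild-type and 11.5 knockout normalised tags 100 bp before its start, a fold of 6.58 (95% interval 3.85 to 12.2), at chr8:72161005-72161195. Its close relative Rab8b showed another arrangement, with 4 strong peaks, all inside the gene, at 54.7 to 60.9 normalised wild-type tags. Only 1 of these lay within 1 kb of the start. In the knockout set they differed more: the peaks at 45.4 kb and 37.1 kb after the start kept 14.0 and 12.4 normalised tags (folds of 4.10 and 4.83), while the peak at 21.6 kb kept 2.06 (fold 29.5, 95% interval 8.32 to 120.4).

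Rab37, a GTPase of secretory granules, had 5 peaks inside the gene. The strongest, at chr11:115134016-115134206, held 55.5 and 3.30 normalised tags, a fold of 16.8 (95% interval 6.48 to 62.5), and was also centred inside Cd300lf, a gene of an inhibitory receptor that overlaps Rab37, as was 1 of the weaker peaks. Rab10, which acts in exocytosis, had 8 peaks of 5.92 to 37.1 normalised wild-type tags, from 12 kb below the gene to 12.2 kb above it. Of these, 5 lay inside the gene, and 1 of the outer ones, at 22.0 normalised tags, had the knockout at its lowest value. With the knockout set at 3 tags, the fold there was 8.90 (95% lower limit 7.07). Rab27a, which docks lysosome-related granules and was added after its values were seen, had 3 peaks of up to 44.4 normalised tags. Of the Rab3 GTPases, known from regulated secretion in neurons and glands, Rab3a had a peak of 35.0 normalised tags 139 bp before its start and Rab3c 3 peaks beyond the gene of up to 22.7. Rab3b, Rab3d, Rab13, Rab26, Rab27b and Rab44 had none.

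All 4 genes of the remaining GTPases had a cDC1 peak, against 51.4% of all protein-coding genes. Rab40c, which joins a ubiquitin ligase through its SOCS box, had 72.6 normalised tags 639 bp before the start, but also the highest knockout signal of all Rab peaks, 18.5, and so the lowest fold, 4.04 (95% interval 2.58 to 6.35). Rab28, a GTPase of the cilium, had 40.7 and 4.94 normalised tags 171 bp before its start. Rab23 and Rab40b had peaks of at most 5.64 and 9.73 normalised tags.

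Of the 10 partners, 8 (80.0%) had a cDC1 peak, against 51.4% of all protein-coding genes. Rab11fip4 and Rab11fip1 encode proteins that bind active Rab11 and link it to other proteins. Rab11fip4 carried 8 peaks, the highest inside the gene at chr11:79653500-79653690 with 80.2 and 5.77 normalised tags, a fold of 13.9 (95% interval 6.68 to 35.0). Rab11fip1 carried 5 peaks, 3 of them inside the gene. The highest score of the 5 belonged to a peak outside the gene, 0.521 kb above it, which held 57.2 wild-type and 2.06 knockout normalised tags (fold 28.0, 95% interval 7.85 to 113.8). The peak 2.57 kb above the gene held 70.6 and 12.4, a fold of 5.71 (95% interval 3.39 to 10.4). Rab3gap2, a subunit of the complex that inactivates Rab3 and activates Rab18, had 8 weak peaks of 9.30 to 15.2 normalised tags. The best peaks of Rab3gap1, Rab3ip, Rab5if, Rab11fip2 and Rab11fip3 ran from 14.1 to 34.3, and Rab3il1 and Rab11fip5 had none.

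The position of the peaks was compared with that of all peaks, although the genes were chosen with earlier results of these data known. Of the 96 cDC1 Rab peaks whose gene has a listed start, 30 (31.3%, 95% interval 22.2% to 41.5%) were centred within 1 kb of it, at 29 genes. Over all cDC1 peaks this share was 21.7% of 25210. Peaks near a start held more signal: a median of 36.1 normalised wild-type tags at the 30 Rab peaks against 15.5 at the 66 others. Over all cDC1 peaks the medians were 20.2 and 14.4. The knockout signal was also higher there, 4.53 against 1.65 normalised tags in the Rab peaks, and the median fold near starts was lower, 7.46 against 9.07. In the same way, all peaks near starts had a median fold of 7.86 and the others 11.1. Peaks share pooled libraries, several can belong to the same gene, and they are not replicates. No test was made, and the interval of the share does not serve as one. Inside genes lay 73 of the 132 Rab peaks (55.3%), against 56.0% of all cDC1 peaks.

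**Figure D2:**
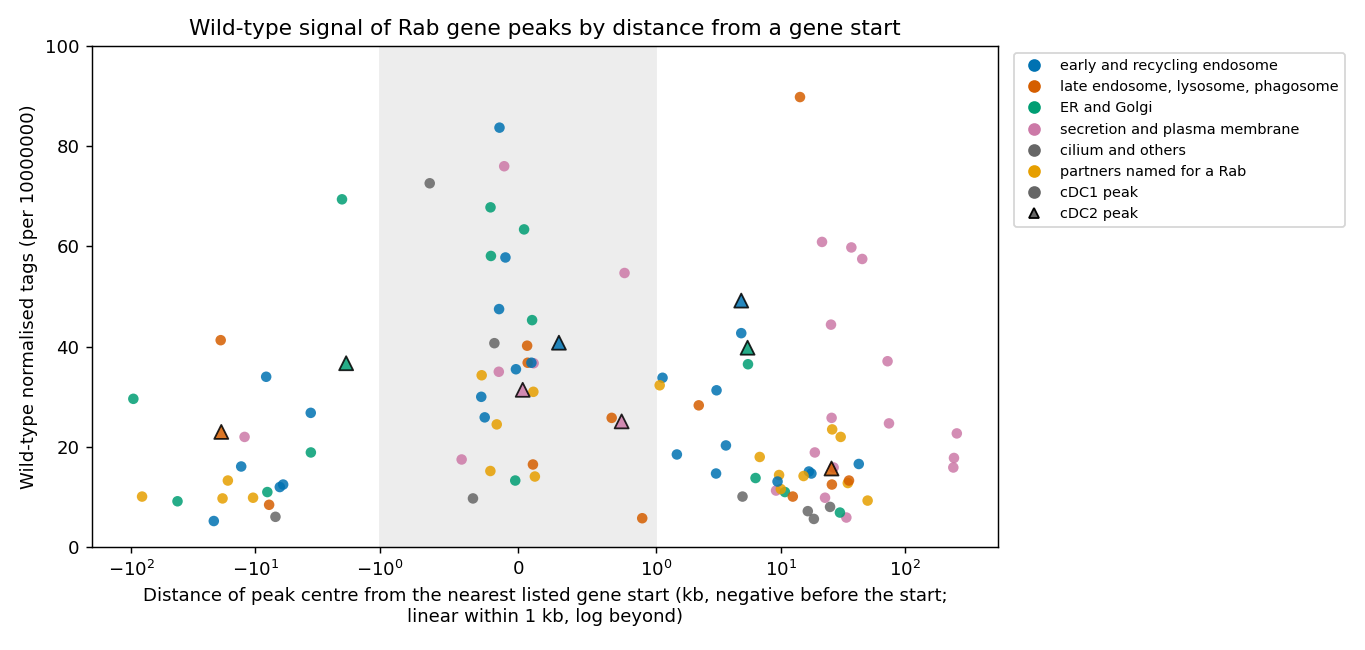
Wild-type normalised tags (per 10000000) of each Rab peak against the distance of its centre from the nearest listed start of its gene in kb, negative before the start, linear within 1 kb (grey) and log beyond; circles are cDC1 peaks, triangles cDC2 peaks, and colours give the group of the protein. Of peaks above 60 tags at genes with a listed start, those of Rab20 and Rab19 and 1 of Rab8b lie outside the grey band.

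The promoter windows were also compared with every cDC1 peak, whichever gene it was assigned to. Of 70 Rab windows, 29 (41.4%, 95% interval 29.8% to 53.8%) overlapped a cDC1 peak, against 21.8% of all 21229 windows. Base composition moved with this: the median G and C content was 63.3% in Rab windows under a peak and 60.3% in the others, and 61.7% and 54.3% over all windows. GC boxes stood in 23 of the 29 Rab windows under a peak and in 26 of the 41 others. Over all windows these shares were 68.7% and 39.9%. The part of base composition in the overlap was not tested. Windows of a gene can lie under the same peak, as at Rab7, so the interval of the share is no test.

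The windows of 3 genes that had no cDC1 peak of their own, Rab5b, Rab6a and Rab13, also lay under a peak. These peaks were centred inside the neighbouring genes Pmel, Mrpl48 and Rps27 and so went to those. The peak beside Rab5b was the strongest, with 51.5 wild-type and 7.41 knockout normalised tags, a fold of 6.93 (95% interval 3.59 to 15.5), centred 176 bp before the Rab5b start. That beside Rab6a held 34.7 and 3.71 normalised tags (fold 9.42, 95% interval 3.54 to 26.6), 169 bp before the start, and that beside Rab13 17.9 and 2.47 (fold 7.23, 95% interval 2.39 to 36.3), 160 bp before it. With the rule for assignment, all 3 count among the 17 Rab genes without a cDC1 peak.

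In cDC2, 9 of the 67 Rab genes (13.4%) had a peak, close to the background of 9.54% among all protein-coding genes. Their 11 peaks held 15.7 to 49.2 normalised wild-type tags, with a median of 31.4 (24.1 over all 2776 cDC2 peaks), and 0.733 to 9.52 in the knockout. The median fold was 7.15, against 7.42 over all peaks. The counts behind these values are small, since a cDC2 peak rested on 7.5 to 23.5 wild-type tags and 1 wild-type pool. For none of the 11 did the interval of the fold lie wholly above 4, and it did so for 1.87% of all cDC2 peaks.

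The strongest cDC2 peaks were those of Rab14 and Rab37, both with 49.2 wild-type and 4.40 knockout normalised tags, a fold of 11.2 (95% interval 3.47 to 59.3). The Rab14 peak lay inside the gene at chr2:35196193-35196383, and the Rab37 peak was again centred inside Cd300lf as well. Next came the peak of Rab5b, at 40.8 and 7.33 normalised tags (fold 5.57, 95% interval 2.08 to 19.5), which was centred inside both Rab5b and Pmel. Rab39 had 39.8 and 9.52 (fold 4.18, 95% interval 1.56 to 10.9), and Rab19 36.7 and 5.13 (fold 7.15, 95% interval 2.12 to 26.1).

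Rab8b had 2 cDC2 peaks, at 31.4 and 25.1 normalised tags, the first 34 bp after the start. The peak of Rab11fip4 held 29.3 and that of Rab7 23.0. Rab37 had another of 20.9. At Rab20 the cDC2 peak was weak, 15.7 normalised tags with the knockout at its lowest value. With the knockout set at 3 tags, the fold there was 3.57 (95% lower limit 2.44). This Rab20 peak lay 0.449 kb beyond the end of the gene, away from the strong cDC1 site inside it. No cDC2 peak was assigned to Rab11b, Rab8a, Rab33b, Rab1a, Rab40c or Rab11fip1, which are among the 12 Rab genes with the highest cDC1 scores. At the cDC1 density, the strongest cDC1 peaks of Rab20, Rab11b and Rab8a would have given 42.9, 40.0 and 36.3 wild-type tags at the depth of cDC2. The weakest peak listed there held 6 tags, but a call also required the limits on fold and p. Of all cDC1 peaks of at least 50 normalised tags, 22.2% were listed in cDC2. Signal in cDC2 at the places of these Rab20, Rab11b and Rab8a peaks was not available as a value here, and a difference between the subsets was not tested.

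Of the 11 cDC2 Rab peaks, 7 (63.6%, 95% interval 30.8% to 89.1%) overlapped a cDC1 peak, and over all cDC2 peaks the share was 63.7%. They belong to Rab14, Rab37, Rab39, Rab19, Rab11fip4, Rab8b and Rab20. An overlap of 1 bp or more counted, and 5 remained when 50% of the shorter peak was required. In peaks of 191 bp, the centres lay 0.182 kb apart at Rab20 and 0.149 kb at Rab19. These pairs shared less than 50% of their bases, so their values belong to largely different stretches. At Rab14 the called places were identical. There cDC1 held 42.7 and cDC2 49.2 normalised wild-type tags. Rab37 held 55.5 and 49.2, Rab39 36.5 and 39.8, and Rab20 12.5 and 15.7, and the values of the subsets lay closest at these 4. The cDC1 signal was the higher at the other 3: 80.2 against 29.3 at Rab11fip4, 69.4 against 36.7 at Rab19, and 54.7 against 25.1 at Rab8b. The intervals of the fold of the 2 subsets overlapped at all 7 places. Those of cDC2 are wide, 2.54 to 733.4 at Rab8b for example, so the overlap does not show equal folds. Of the 4 cDC2 peaks without an overlap, 3 had a cDC1 peak nearby, with centres 0.211 kb apart at Rab7, 0.472 kb at Rab5b (the peak given to Pmel) and 0.737 kb at Rab8b. The second Rab37 peak was 5.0 kb from the nearest.

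**Figure D3:**
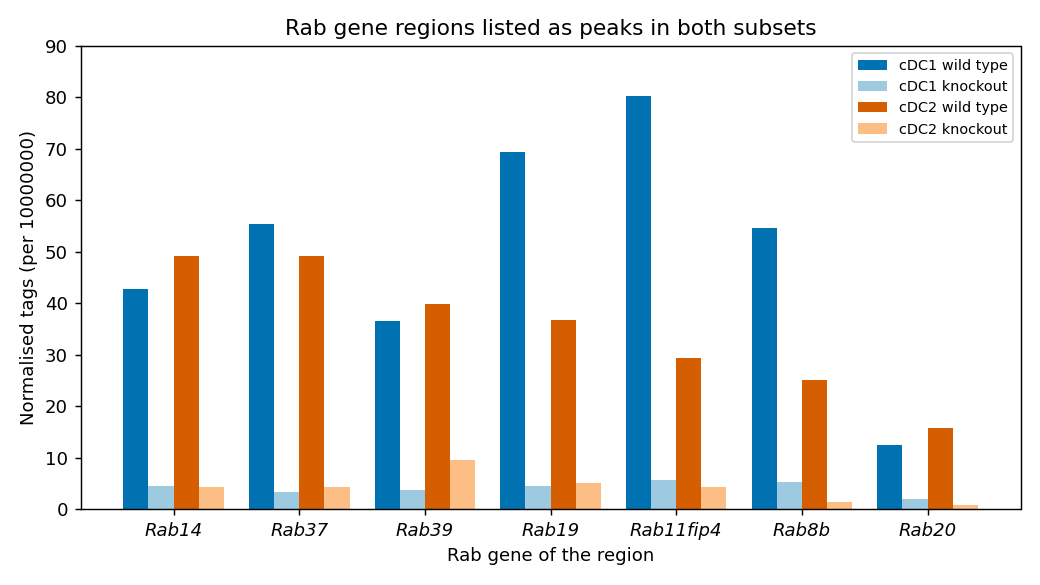
Normalised tags (per 10000000) in the pooled wild-type and knockout sets of cDC1 (blue) and cDC2 (orange) at the 7 Rab regions listed as peaks in both subsets; bars start at 0 and have no error, since no value per library was used. Wild-type bars are nearly level at Rab14, Rab37, Rab39 and Rab20 and higher in cDC1 at Rab11fip4, Rab19 and Rab8b. At Rab20 and Rab19 the cDC1 and cDC2 peaks overlap by less than 50% of their length.

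Seen from cDC1, 7 of 132 Rab peaks (5.30%) were listed in cDC2, and 5.61% of all cDC1 peaks. This share was also counted by cDC1 wild-type signal. Among the 17 Rab peaks of at least 50 normalised tags, 4 were listed in cDC2 (23.5%, 95% interval 6.81% to 49.9%), against 22.2% of all such peaks. From 25 to 50 normalised tags, 2 of 35 were listed (5.71%, 95% interval 0.70% to 19.2%), against 10.8% of all. From 12.6 to 25, none of 44 was (upper limit 8.04%), against 4.82%. Below 12.6 normalised tags, the lowest value listed in cDC2, 1 of 36 was listed, that of Rab20 (2.78%, 95% interval 0.07% to 14.5%), against 1.16%. The part of sequencing depth in these shares was not tested.

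The proteins that act on Rabs, or with them, were described from lists of genes chosen by function. For each named gene the values are those of its highest-scoring peak in the subset, which can lie at different places in cDC1 and cDC2. Of 8 genes of the membrane cycle, which attach lipid to Rabs or carry them between membrane and cytosol, 6 had a cDC1 peak and 4 a cDC2 peak. Gdi2, which withdraws inactive Rabs from membranes, reached 85.3 wild-type and 5.36 knockout normalised tags in cDC1 (fold 15.9, 95% interval 7.08 to 37.0), 11.5 kb from the gene. Its cDC2 peak held 28.3 at another place, 0.089 kb from the gene. Rabggta, the alpha subunit of the enzyme that attaches the lipid, reached 46.0 in cDC1 inside the gene and 30.4 in cDC2, 2.29 kb from it. In cDC1 Rabggtb had 23.5, and in cDC2 Rabac1 had 20.9. Of 31 activators (guanine nucleotide exchange factors), 29 (93.55%) had a cDC1 peak and 8 (25.8%) a cDC2 peak, against the same 51.4% and 9.54%. Rin2, an activator of Rab5, had the highest-scoring in cDC1, with 96.4 and 3.30 normalised tags (fold 29.2, 95% interval 11.3 to 108.0), 30.8 kb from the gene. Dennd4b reached 75.1 and Dennd4a 63.6. In cDC2 Mon1b, part of the activator of Rab7, led with 70.2 and 16.1 normalised tags (fold 4.35, 95% interval 2.19 to 9.67), and Dennd3 and Dennd4c had 31.4 and 24.1.

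Of 32 inactivators (GTPase-activating proteins), 25 (78.1%) had a cDC1 peak and 7 (21.9%) a cDC2 peak. The shares over all protein-coding genes were 51.4% and 9.54%. Evi5l had 105.0 and 15.2 normalised tags in cDC1 (fold 6.88, 95% interval 4.23 to 11.3), 0.214 kb from the gene. Tbc1d4, which restrains Rab10 in insulin-regulated transport, carried 13 peaks, the highest-scoring with 83.6, and Tbc1d8 carried 7, with 76.8. The highest-scoring cDC2 peaks of this list were those of Tbc1d22a with 53.4, Tbc1d8 with 51.3 and Usp6nl, an inactivator of Rab5, with 23.0 normalised tags. The named cDC1 peak of Tbc1d8 lay inside the gene and its cDC2 peak 24.6 kb outside. Of 40 effectors, 30 had a cDC1 peak and 3 a cDC2 peak. The kinase Lrrk2, which phosphorylates several Rabs, carried 12 cDC1 peaks, the highest-scoring with 76.8 normalised tags, 28.85 kb from the gene. In cDC2 it had 26.2 at another place, 21.2 kb from the gene. Acap2, which binds Rab35, reached 46.0 in cDC1 and 38.7 in cDC2, and Ocrl, a lipid phosphatase that binds Rabs, 46.0 in cDC1 with the knockout at its lowest value. Exoc6 reached 25.1 in cDC2. Activators, inactivators and effectors are long genes, with median lengths of 59.7 kb, 68.2 kb and 52.8 kb, and the part of this in their counts was not tested.

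**Figure D4:**
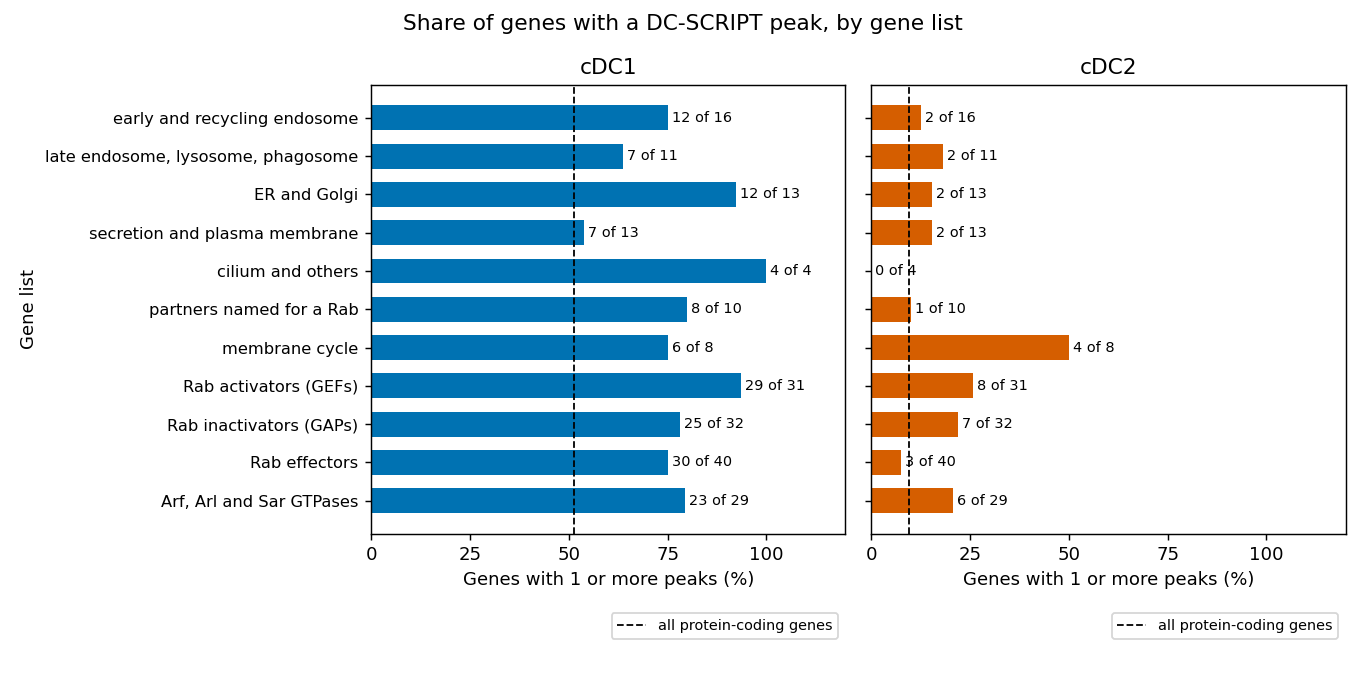
Share of genes with 1 or more peaks (%) in cDC1 and cDC2 for the 6 groups of Rab genes and for 5 lists of other traffic genes, with counts beside the bars; the dashed line is the share of all protein-coding genes, 51.4% and 9.54%. Every bar of cDC1 lies above its line, that of secretion and the plasma membrane (7 of 13, 53.85%) only slightly. In cDC2 the effectors (3 of 40) and the cilium group (0 of 4) lie below theirs.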

How the data were processed

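Per the file headers, HOMER findPeaks (factor mode) called peaks on 1 wild-type tag directory against 1 from knockouts. The limits were 191 bp per peak, an FDR of 0.001, a fold over knockout and over the surrounding 10 kb of at least 4, and a Poisson p of at most 0.0001. Builds GRCm38 and mm10, and HOMER, appear in the submitters' processing notes. At most 1 tag per bp was considered at peak calling. Aligner, any removal of duplicates before peak calling and which libraries entered a directory were not given in the sources used here. As signal, the authors gave wild-type tags scaled to 10000000. The deposited tags behind the fold are at knockout depth (cDC1) or wild-type depth (cDC2), and were returned to unscaled tags with the depth that the columns imply. They can differ slightly from the signal. The deposited score is HOMER's and was ranked within a list only. The deposited fold is a ratio at equal depth. The deposited p-value is a Poisson p over tags and was not used, nor was the focus ratio, a fraction per the file headers.

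Peaks were assigned with Python 3.11.15, pandas 2.3.3 and SciPy 1.17.1 to every protein-coding gene that contains the centre, or else to the nearest, from RefSeq GRCm38.p6 without mitochondrial genes. Tags were rounded to whole numbers for exact intervals. Assignment, overlap and intervals were tested on simulated data. No test between groups was made, since the tables give 1 pooled value per genotype. The members, groups and lists were chosen with earlier results of these data known. Named were the 12 Rab genes with the highest cDC1 scores, the 5 with most cDC1 peaks (a tie adds 1), the top 2 of each group, all with a cDC2 peak, and up to 3 per list and subset. The remaining Rab genes are given so that every one is accounted for, and which of their values to print was decided after these were seen. Rab41, on a list, is not in the gene table. Alternatives were the higher-scoring 50% of peaks, a fold of at least 8, peaks within 10 kb or inside the gene, GTPases only, peaks of at least the lowest cDC2 signal, and other definitions of a shared place.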

Additional observations from a re-analysis of the deposited data

How the results depend on the processing

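Of 31 values under alternatives, 25 lay within 1.5 times the reported count. With only the higher-scoring 50% of peaks the cDC1 Rab peaks numbered 80, with a fold of at least 8 they numbered 78, and with peaks inside the gene 73. With a fold of at least 8, cDC2 kept 4 Rab genes, 4 peaks and 3 shared places. The cDC1 share of Rab genes stayed above that of all protein-coding genes in these alternatives: 61.2% against 34.9% with higher scores, 59.7% against 38.6% with the fold of 8, 70.1% against 47.8% within 10 kb, 55.2% against 37.3% inside genes and 67.2% against 39.6% at or above the lowest cDC2 signal. In cDC2 the shares were 10.4% against 5.10% with higher scores, 5.97% against 5.02% with the fold of 8, 11.9% against 7.51% within 10 kb and 8.96% against 5.33% inside genes. Leaving out peaks centred inside a second gene, chosen after seeing the data, left 129 cDC1 and 9 cDC2 peaks. No paired analysis was possible because the tables hold 1 pooled value per genotype, and no library could be left out. Depth limits cDC2, where 3 knockout tags equal 4.40 normalised tags and 1 wild-type pool stands behind every value.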

Other observations

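The Arf, Arl and Sar GTPases, a related family that shapes vesicle coats and organelle position, were counted in the same way. Of 29 genes, 23 (79.3%) had a cDC1 peak and 6 (20.7%) a cDC2 peak, against 51.4% and 9.54% of all protein-coding genes. Their median length was 13.2 kb, below that of the Rab genes. Arl4d, whose product recruits regulators of the actin skeleton, had the highest-scoring peak in both subsets, 6.97 kb from the gene in cDC1 and 7.04 kb in cDC2. It held 93.9 wild-type and 2.06 knockout normalised tags in cDC1 (fold 45.9, 95% interval 13.0 to 186.8) and 73.3 and 16.1 in cDC2 (fold 4.55, 95% interval 2.26 to 9.93). The intervals do not overlap, but they cover counting error only and not the spread between mouse pools. The difference between the subsets was not tested. Arf6, which acts in endocytosis at the plasma membrane, carried 6 cDC1 peaks, the highest-scoring with 68.8 normalised tags and 72.1 kb from the gene, and Arf3 had 49.2. In cDC2, Arl3 had 51.3 normalised tags and Arl10 had 30.4.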
